A study of Mus musculus with 8 samples.

Results

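The immediate-early and growth-response genes are 41 genes, chosen by name, that encode AP-1 subunits, EGR and Kruppel-like transcription factors, MAP kinase phosphatases and other short-lived regulators. All 41 had at least 1 probe on the array, 48 probes in all, and each gene was read from its probe with the highest mean signal. A filter on dim probes asked for a signal well above background on 4 or more of the 8 arrays. It left 39 members among 23526 genes tested, and none of the 39 passed through 1 group alone.

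The study measured RNA from the liver of C57BL/6J mouse pups on 8 Agilent arrays, labelled with Cy3. Each array was treated as 1 pup, which is in doubt for replicate 4 of both groups, as described below. The knockout group (n = 4) had inherited from the mother a chromosome without the miR-379/miR-410 microRNA cluster. The wild-type group (n = 4) were littermates of such pups, with the cluster intact. Pups of both groups came from caesarean deliveries at E19.5, near term, were kept warm and stimulated to breathe, and killed 4 h later, when a fragment of the large liver lobe was frozen. The cluster is imprinted and active on the maternal copy, and the inherited deletion is not restricted to the liver. The labels do not name the litters. Each fragment is bulk tissue, in which fewer cells of a type and less RNA per cell cannot be told apart.

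Immediate-early genes are transcribed within minutes of a growth factor, cytokine, hormone or stress signal, without new protein synthesis. MAP kinases phosphorylate ternary complex factors that sit with serum response factor (SRF) on CArG boxes, cyclic AMP acts through CREB on CRE sites, and the encoded Fos and Jun proteins then bind AP-1 sites in later genes. Most of the transcripts are degraded quickly, and several members, such as the DUSP phosphatases and Zfp36, shut the response down again. In liver the genes are known for their response to partial hepatectomy, to hormones of feeding and fasting, and to inflammation.

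A level is the log2 processed signal of a spot minus the 75th percentile of the non-control spots of its array, so 0 is that percentile and 1 unit is a doubling. A difference is the mean level of the knockout arrays minus that of the wild-type arrays, with its standard error (SE), and was tested with limma. Adjusted p-values are Benjamini-Hochberg values over all 23526 genes, and a gene is said to pass at an adjusted p under 0.05. The number of arrays limits the precision: the median 95% interval of a difference reached 0.50 to either side over the members and 0.26 over all genes tested.

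Per array, 58.6% to 66.2% of non-control spots were well above background, and no spot was saturated. All arrays lay on 1 slide, wild-type arrays in 1 column and knockout arrays in the second, and the effects of column and of genotype cannot be told apart. Mirg, a noncoding RNA of the imprinted domain that holds the cluster, had a level of 2.16 ± 0.06 (SD, n = 4) in the wild-type group and -0.54 ± 0.33 (SD, n = 4) in the knockout group, in the direction of the labels. The independence of replicate 4 is in doubt in both groups. Knockout 4 carried Ddx3y, a Y-linked transcript, at 71.2% of its signal in knockout 3, and also Xist, which females express, at 29.5% of the mean signal of knockout 1 and 2. Ddx3y was well above background in wild-type 1, 2 and 4 and knockout 3 and 4, and Xist in knockout 1, 2 and 4. Wild-type 3 had neither. Hepatocyte markers were all measured, 12 of 12, and their summed signal overlapped between groups (5741 to 6697 in wild-type and 6079 to 6338 in knockout arrays, in units of the array's 75th percentile).

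The members were higher on average in knockout arrays, but the excess lay in 2 of the 4 knockout arrays, knockout 3 and knockout 4, and no member passed the test. With limma on 8 arrays, 0 of 39 members passed in either direction, against 9 of all genes higher (0.0383%) and 42 lower (0.179%). The smallest adjusted p of a member was 0.155, for Ier3. At an unadjusted limma p under 0.05, 8 members were higher (Csrnp1, Dusp1, Fos, Gadd45a, Gadd45b, Ier3, Rhob and Zfp36) against 6.84% of all genes, and 0 were lower against 6.48%. That count of 8 was 2 without knockout 3, 4 without knockout 4 or without wild-type 1, 5 without wild-type 2 or without wild-type 3, 13 without knockout 1 and 18 without knockout 2. The share of all genes was not counted in these fits, so the changes cannot be read as particular to the members. The mean was higher in knockout for 33 members, against 56.5% of all genes, and the difference was at least 0.5 for 16, against 2.35%. The median difference over the 39 members was 0.39, and over all genes tested 0.03. It ran from -0.12 for Gadd45g to 2.34 for Atf3. Without replicate 4 of both groups the median was 0.33, and 2 members (Ier3 and Zfp36) were higher at an unadjusted p under 0.05, against 3.46% of all genes. Without knockout 3 and 4 the median was 0.035, against 0.032 over all genes, with 23 of 39 means higher, and 2 members (Gadd45a and Ier3) were higher at an unadjusted p under 0.05, against 4.03% of all genes.

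**Figure D1:**
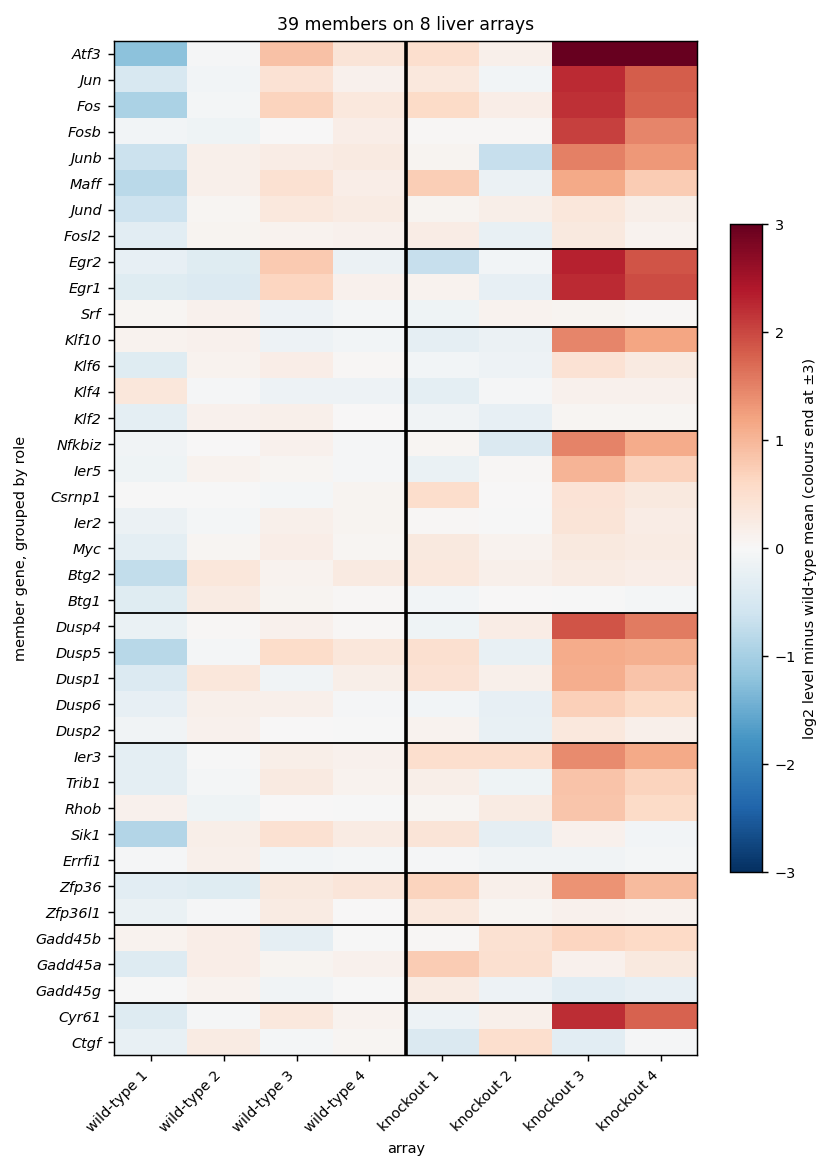
Each row is 1 of the 39 members tested, grouped by role, and each column 1 array. Colour gives the level minus the mean of the 4 wild-type arrays on a log2 scale, with knockout 3 and 4 dark red in most of the AP-1, EGR and phosphatase rows and knockout 1 and 2 near the wild-type colours.

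Array by array, knockout 3 and knockout 4 stood apart from the other 6. The median member lay 0.71 above the wild-type mean in knockout 3 and 0.58 above it in knockout 4, but 0.09 above it in knockout 1 and 0.0064 above it in knockout 2. Among the wild-type arrays the median deviation was -0.29 in wild-type 1, 0.07 in wild-type 2, 0.14 in wild-type 3 and 0.08 in wild-type 4. A member lay over 1 log2 unit above the wild-type mean 17 times in knockout 3, 13 times in knockout 4 and 0 times in each of the other 6 arrays. Of all 23526 genes, 258 did so in knockout 3, 187 in knockout 4 and 24 to 178 in the other 6 arrays. Both knockout 3 and knockout 4 exceeded every wild-type array in 26 of 39 members, against 16.5% of all genes, and they were the 2 highest of all 8 arrays in 24, against 10.4%. Knockout 1 and 2 both exceeded every wild-type array in only 2 members, Gadd45a and Ier3, against 11.7% of all genes. All 4 knockout arrays exceeded all wild-type arrays in 1 member, Ier3, against 4.73%. Knockout 3 was the highest array in 26 members, against 14.5% of all genes, and knockout 4 in 0. Wild-type 1 was the lowest array in 22 members, against 26.3%.

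The members spread more among knockout arrays than among wild-type arrays. Their median SD was 0.42 in knockout and 0.21 in wild-type arrays, where all genes had medians of 0.13 and 0.17. The knockout SD was the larger in 27 of 39 members, against 9208 of all 23526 genes. It lay in the top 10% of all genes for 20 members and in the top 1% for 11, while the wild-type SD lay in the top 10% for 10.

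Because knockout 4 may not be a separate liver, its member levels were set against knockout 2 and knockout 3 in fixed weights. These, fitted to log2 levels of 22236 genes outside the members, the other gene lists and the sex chromosomes, were 0.37 for knockout 2 and 0.63 for knockout 3. The sum of log2 levels missed the knockout 4 level by a median of 0.073 over the members and 0.075 over all genes. Knockout 4 lay between knockout 2 and knockout 3 in 34 of 39 members, against 52.3% of all genes. Wild-type 4 lay between wild-type 2 and wild-type 3 in 26 of 39, against 48.1%. Knockout 2 and 3 lay far apart in members such as Atf3, at -0.47 and 3.95, and a wide gap by itself makes a place inside it more likely. The signals themselves were also summed on the linear scale, an alternative chosen after seeing the data. The weights were then 0.36 and 0.64, and the median miss, in log2 units, was 0.055 over the members and 0.073 over all genes. Atf3 in knockout 4 was measured at 3.52, where the sum of signals gave 3.35 and the sum of log2 levels 2.33. For Egr1, measured at 2.46, these were 2.23 and 1.82, and for Junb, measured at -1.04, they were -1.29 and -1.62. The member farthest from the sum of signals was Dusp5, measured at -3.75 against -4.07. Wild-type 4 was approached by signals of wild-type 2 and 3 with weights of 0.47 and 0.53. There the median miss over the members was 0.075, and Egr2 lay farthest off, measured at -4.68 where the sum of signals gave -4.14. Whether the 2 knockout arrays with high members come from 2 livers or in part from 1 was not tested.

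**Figure D2:**
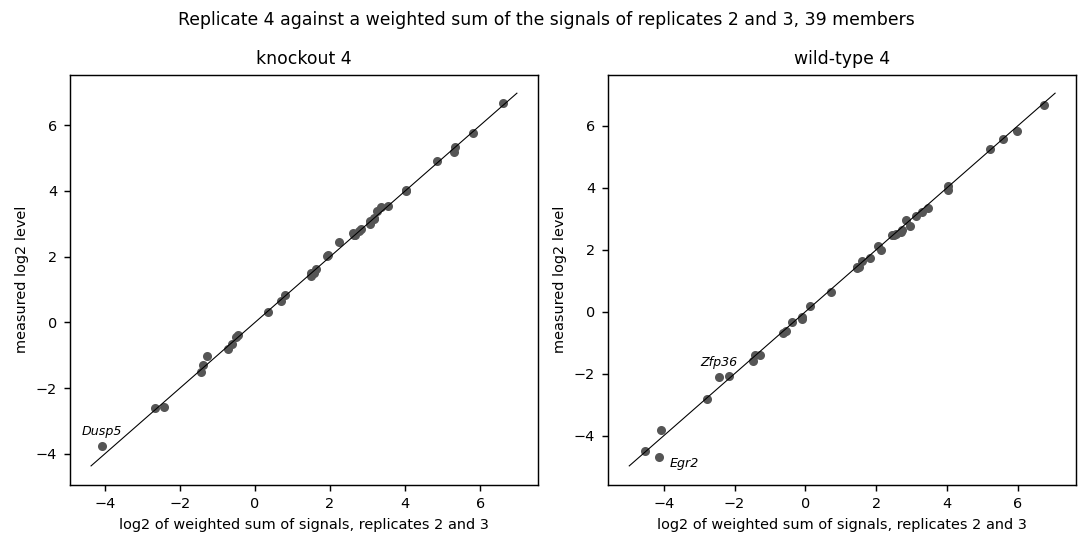
Each point is 1 of 39 members, with the measured log2 level in replicate 4 on the vertical axis and the log2 of a weighted sum of the signals of replicates 2 and 3 of the same group on the horizontal axis. The line marks equality, names mark members over 0.3 from it, and most points lie on or close to it in both panels.

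The promoters of 7 members whose levels are given below are shown because the 250 bases before their start sites hold the letters of sites known for SRF or CREB. RefSeq promoters on GRCm38.p6, from 250 bases before to 50 after the start, were found for 30 of the 41 members (40 promoters) and for 27025 genes in all. The CArG box was searched by name, as the usual SRF consensus, and the CRE core as TGACG, both on either strand. Capitals mark these letters. Of the 30 members, Egr2 (chr10:67537619-67537868, plus strand), Dusp5 (chr19:53528895-53529144, plus strand), Zfp36 (chr7:28379229-28379478, minus strand) and Srf itself (chr17:46556163-46556412, minus strand) held a CArG box in this window. Bases farther out and the promoters of the other members were not searched. Fos (chr12:85473640-85473889, plus strand), Atf3 (chr1:191183334-191183583, minus strand) and Dusp1 (chr17:26508473-26508722, minus strand) hold CRE cores, and Dusp1 holds the full CRE, TGACGTCA.
Egr2: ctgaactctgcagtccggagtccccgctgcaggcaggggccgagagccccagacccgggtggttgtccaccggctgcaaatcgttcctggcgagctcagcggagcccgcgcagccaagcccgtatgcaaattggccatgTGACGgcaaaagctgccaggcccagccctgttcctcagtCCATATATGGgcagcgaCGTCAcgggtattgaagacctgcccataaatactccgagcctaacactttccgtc
Dusp5: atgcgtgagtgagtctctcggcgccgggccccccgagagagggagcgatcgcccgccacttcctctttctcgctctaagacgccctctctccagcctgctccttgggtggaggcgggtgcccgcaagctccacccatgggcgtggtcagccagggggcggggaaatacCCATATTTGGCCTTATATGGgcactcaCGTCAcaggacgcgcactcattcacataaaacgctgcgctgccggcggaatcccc
Zfp36: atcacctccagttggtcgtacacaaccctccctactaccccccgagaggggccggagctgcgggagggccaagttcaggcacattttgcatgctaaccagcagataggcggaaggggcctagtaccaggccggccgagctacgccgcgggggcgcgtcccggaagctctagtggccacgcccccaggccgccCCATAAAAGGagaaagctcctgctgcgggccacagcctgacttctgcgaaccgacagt
Srf: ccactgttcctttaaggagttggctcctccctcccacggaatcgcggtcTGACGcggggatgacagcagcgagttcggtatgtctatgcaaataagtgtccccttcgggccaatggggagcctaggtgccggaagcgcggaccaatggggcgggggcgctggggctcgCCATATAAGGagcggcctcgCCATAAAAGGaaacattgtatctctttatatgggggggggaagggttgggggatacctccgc
Fos: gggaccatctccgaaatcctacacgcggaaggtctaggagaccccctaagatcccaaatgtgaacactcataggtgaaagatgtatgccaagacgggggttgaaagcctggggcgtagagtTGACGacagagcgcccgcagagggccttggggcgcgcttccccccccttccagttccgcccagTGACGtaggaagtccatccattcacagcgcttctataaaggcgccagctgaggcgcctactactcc
Atf3: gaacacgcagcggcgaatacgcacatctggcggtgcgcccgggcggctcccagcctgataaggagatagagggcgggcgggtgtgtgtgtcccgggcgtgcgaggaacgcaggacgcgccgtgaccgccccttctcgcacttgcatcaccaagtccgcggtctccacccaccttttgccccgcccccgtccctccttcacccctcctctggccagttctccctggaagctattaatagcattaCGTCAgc
Dusp1: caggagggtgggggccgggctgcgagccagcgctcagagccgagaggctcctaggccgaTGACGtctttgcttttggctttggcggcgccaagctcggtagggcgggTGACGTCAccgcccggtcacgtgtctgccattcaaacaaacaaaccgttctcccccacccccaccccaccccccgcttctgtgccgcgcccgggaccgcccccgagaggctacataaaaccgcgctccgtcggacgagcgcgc

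A CArG box lay in the window of 4 of 30 members (13.3%), against 1.81% of all genes. The full CRE lay in 4 members, Btg2, Dusp1, Errfi1 and Maff (13.3%, against 2.03%), and the CRE core, which every full CRE contains, in 17 (56.7%, against 23.0%). The EGR site GCGGGGGCG lay in 7 (23.3%, against 3.31%) and the AP-1 site TGACTCA in 1, Csrnp1 (3.33%, against 5.95%). Member promoters were richer in G and C, with a median of 62.2% against 52.7%. A match describes the letters and was not tested as a binding site.

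The AP-1 subunits, which pair as leucine zipper dimers, held the largest differences. The mean was higher in the knockout group for all 8 tested (median difference 0.75), and in 6 of them knockout 3 and 4 exceeded every wild-type array. Atf3, a stress-induced partner and repressor within the ATF family (probe at chr1:192994547-192994606, mm9), stood at -1.85, -0.64, 0.27 and -0.24 in wild-type 1 to 4 and at -0.11, -0.47, 3.95 and 3.52 in knockout 1 to 4. Knockout 3 and 4 stood far above the rest, and knockout 1 and 2 lay within the wild-type range. Its difference was 2.34 (SE 1.05, limma adjusted p = 0.386), with knockout 3 at 23.6 times the wild-type mean. Without knockout 3 and 4 the difference was 0.33.

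Fos, the founding partner of Jun (chr12:86817900-86817959, mm9), read -1.88, -0.99, -0.27 and -0.61 in the wild-type arrays and -0.35, -0.74, 1.25 and 0.84 in the knockout arrays, in replicate order. Wild-type 1 was the lowest, knockout 1 and 2 fell inside the wild-type range, and knockout 3 and 4 lay above it. The difference was 1.19 (SE 0.50, limma adjusted p = 0.360) and 0.39 without knockout 3 and 4. Jun, the partner of Fos in AP-1, stood at 2.59, 2.99, 3.52 and 3.21 against 3.39, 3.00, 5.33 and 4.90. Its 2 high arrays were again knockout 3 and 4, at 4.75 and 3.53 times the wild-type mean, and the difference was 1.07 (SE 0.51, limma adjusted p = 0.403).

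Fosb, a second Fos relative, was flat in 6 arrays. It read -4.12, -4.17, -4.02 and -3.83 in wild-type and -4.00, -3.99, -1.98 and -2.57 in knockout arrays. Only knockout 3 and 4 left the range of the others, and the difference was 0.90 (SE 0.44, limma adjusted p = 0.419) against 0.03 without them. Junb, a Jun relative with weaker activity, stood at -2.97, -2.19, -2.11 and -2.07 in wild-type and -2.25, -3.02, -0.82 and -1.04 in knockout arrays. Wild-type 1 and knockout 2 were low and knockout 3 and 4 high, so the difference of 0.55 (SE 0.48, limma adjusted p = 0.623) became -0.30 without the latter. Maff, a small Maf protein without a transactivation domain, read 1.57, 2.55, 2.84 and 2.59 against 3.13, 2.20, 3.51 and 3.14. Here knockout 1 also exceeded every wild-type array while knockout 2 was below wild-type 2, 3 and 4, and the difference was 0.61 (SE 0.34, limma adjusted p = 0.461).

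Jund, a subunit known for steady expression, and Fosl2, a late Fos relative, showed no such step. Jund had a difference of 0.19 (95% interval 0.44 to either side) and Fosl2 of 0.10 (0.33 to either side). Fosl1, another late Fos relative, was dim. It was well above background in 2 arrays, knockout 3 and 4, where it read -4.26 and -4.47. It was left out of the test. Its knockout mean was 1.05-fold the wild-type mean with each wild-type array set at its lowest measurable signal. Knockout 1 and 2, at -6.09 and -6.87, lay below their own lowest measurable levels of -5.38 and -5.36. The 1.05 is therefore not a lower bound.

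**Figure D3:**
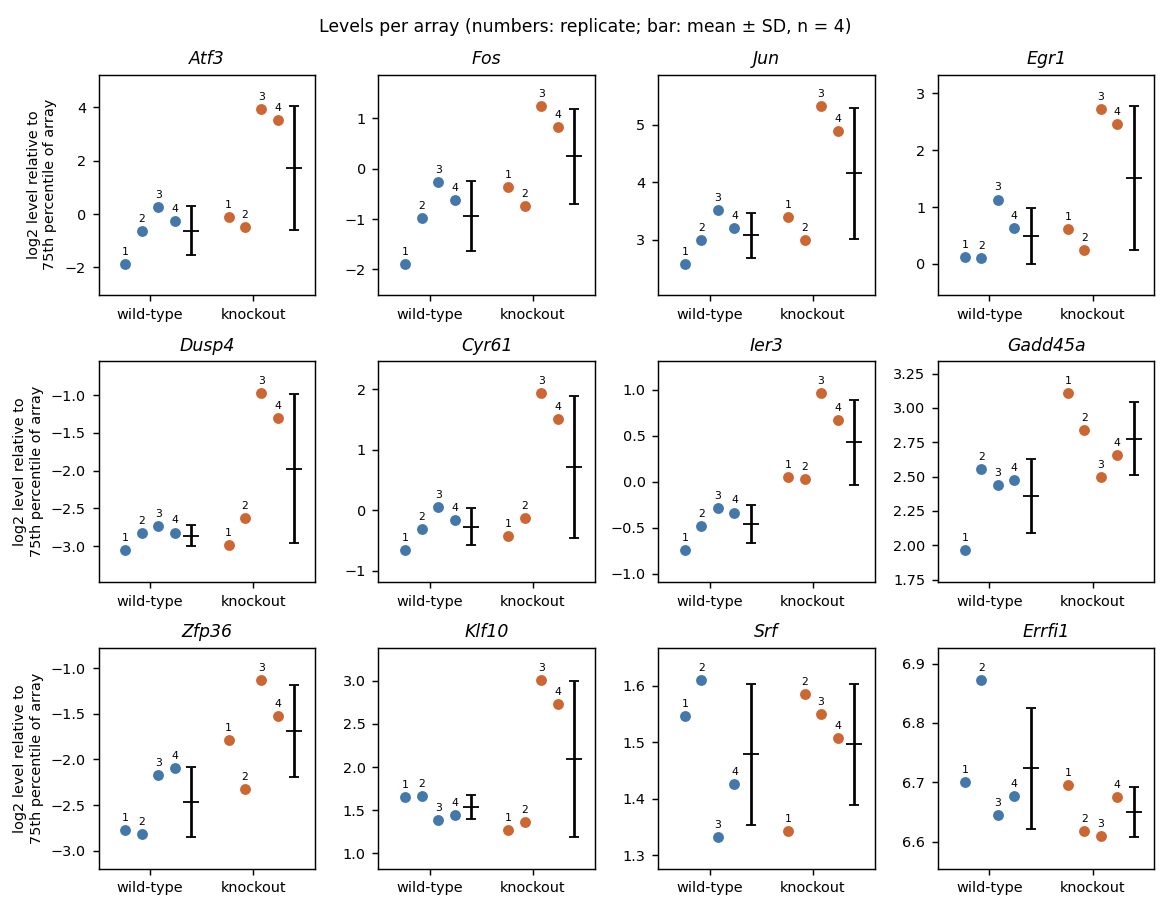
Levels of 12 members in each array, as log2 units relative to the array's 75th percentile, with the replicate number above each point and the mean ± SD of each group (n = 4) beside it. For Atf3, Jun, Dusp4, Cyr61 and Klf10 knockout 3 and 4 stand well clear of the other 6 arrays, while Gadd45a is highest in knockout 1 and the groups overlap for Errfi1 and for the Srf probe shown.

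Among the EGR factors, zinc finger proteins that SRF targets first, both measured members showed the same 2 arrays. Egr1 read 0.13, 0.10, 1.13 and 0.64 in wild-type and 0.61, 0.24, 2.73 and 2.46 in knockout arrays. Knockout 1 and 2 lay inside the wild-type range. The difference was 1.01 (SE 0.57, limma adjusted p = 0.470), and -0.071 without knockout 3 and 4. Egr2, whose promoter with its CArG box is printed above (probe at chr10:67004798-67004857, mm9), read -4.73, -4.85, -3.71 and -4.68 against -5.19, -4.58, -2.17 and -2.61. It was well above background on 6 arrays, 3 of each group, and wild-type 3 was the high array of its group. The difference was 0.85 (SE 0.66, limma adjusted p = 0.585) and turned to -0.39 without knockout 3 and 4. Egr3, the third of the family, stayed under that background criterion on all 8 arrays and was left out of the test. Srf, the factor that binds the CArG box, averaged 1.48 ± 0.12 in the wild-type group and 1.50 ± 0.11 in the knockout group (SD, n = 4 each), a difference of 0.02 with a 95% interval of 0.20 to either side. A dimmer second Srf probe differed by 0.13 (SE 0.13), and there knockout 3 and 4, at 0.40 and 0.22, lay above the wild-type maximum of 0.014 and above knockout 1 and 2.

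The Kruppel-like factors split. Klf10, a TGF-beta-induced early repressor, stood at 1.65, 1.66, 1.38 and 1.44 in wild-type and at 1.27, 1.36, 3.01 and 2.72 in knockout arrays. Knockout 1 and 2 were the lowest of all 8 arrays and knockout 3 and 4 the highest, so the difference of 0.56 (SE 0.39, limma adjusted p = 0.550) became -0.22 without knockout 3 and 4. Klf6, first known as an injury gene of hepatic stellate cells, read 3.73 and 3.55 in knockout 3 and 4, above the wild-type range, with a difference of 0.12 (SE 0.17). Klf2, an endothelial flow-responsive factor, and Klf4 had differences of -0.06 (SE 0.12) and -0.02 (SE 0.14), and neither placed both knockout 3 and 4 above the wild-type arrays. The median difference of the 4 was 0.05.

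The MAP kinase phosphatases, which remove phosphate from ERK, JNK and p38 and end the signal that induced them, had a higher knockout mean in 5 of 5 (median difference 0.61). In each of the 5, knockout 3 and 4 exceeded every wild-type array. Dusp1, the nuclear phosphatase whose promoter with the full CRE is printed above, read 1.53, 2.26, 1.83 and 2.11 in wild-type and 2.38, 2.08, 3.03 and 2.79 in knockout arrays. Knockout 1 also lay above the wild-type arrays and knockout 2 among them. The difference was 0.64 (SE 0.23, limma adjusted p = 0.296), and 0.29 without knockout 3 and 4.

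Dusp4, a nuclear phosphatase of ERK (probe at chr8:35882045-35882104, mm9), stood at -3.06, -2.83, -2.74 and -2.82 against -2.98, -2.63, -0.97 and -1.30. The 6 other arrays were close together, and knockout 3 and 4 lay at 3.70 and 2.95 times the wild-type mean. The difference was 0.89 (SE 0.42, limma adjusted p = 0.407) and 0.05 without those arrays. Dusp5, an ERK phosphatase well above background on 5 arrays, read -5.67, -4.87, -4.28 and -4.48 against -4.35, -5.04, -3.72 and -3.75, and its difference was 0.61 (SE 0.37, limma adjusted p = 0.499). Its wild-type arrays ranged widely, with wild-type 1 lowest. Dusp6, the cytoplasmic ERK phosphatase, had a difference of 0.24 (SE 0.22) and of -0.16 without knockout 3 and 4, and Dusp2 of 0.08 (SE 0.12).

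Of the regulators of signalling, Ier3 was the only member of the 39 whose groups did not overlap. Ier3, a short-lived protein that modulates ERK signalling and cell survival (probe at chr17:35959528-35959587, mm9), stood at -0.75, -0.49, -0.29 and -0.34 in wild-type 1 to 4 and at 0.05, 0.03, 0.97 and 0.67 in knockout 1 to 4. Every knockout array was above every wild-type array, with knockout 1 and 2 closest to them. The same order of groups held in 4.73% of all genes. The gap was 0.89 (SE 0.22, limma adjusted p = 0.155), a 1.86-fold higher mean. The two-sided exact permutation p was 0.0286, the smallest that 70 assignments of 8 arrays allow. Any gene whose groups do not overlap gets this value, so it adds nothing to the order of the arrays. The gap was 0.86 without replicate 4 of both groups (limma adjusted p = 0.620) and 0.50 without knockout 3 and 4 (limma adjusted p = 0.521).

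Rhob, a small GTPase of endosomes and the cytoskeleton, read -1.24, -1.51, -1.35 and -1.38 against -1.32, -1.13, -0.55 and -0.80. Knockout 2, 3 and 4 exceeded the wild-type arrays and knockout 1 lay among them, with a difference of 0.42 (SE 0.16, limma adjusted p = 0.324). Trib1, a pseudokinase that steers C/EBP-alpha to degradation, had a difference of 0.39 (SE 0.22) with knockout 3 and 4 at 2.21 and 2.02, above a wild-type range of 1.06 to 1.61. Sik1, a kinase induced by cyclic AMP that restrains the gluconeogenic program, differed by 0.04 (SE 0.28) and did not follow the 2 arrays: knockout 3 and 4 read 1.62 and 1.41, inside the wild-type range. Errfi1, an inhibitor of the EGF receptor, was nearly level, at 6.72 ± 0.10 in wild-type and 6.65 ± 0.04 in knockout arrays (SD, n = 4 each).

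Zfp36, which binds AU-rich elements and hastens the decay of many immediate-early transcripts, stood at -2.78, -2.82, -2.17 and -2.10 in wild-type and -1.79, -2.32, -1.13 and -1.52 in knockout arrays. Knockout 1, 3 and 4 exceeded the wild-type arrays and knockout 2 did not. The difference was 0.78 (SE 0.27, limma adjusted p = 0.279), 0.84 without replicate 4 of both groups and 0.41 without knockout 3 and 4. The related Zfp36l1 differed by 0.15 (SE 0.11).

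The GADD45 proteins, stress sensors that bind a kinase upstream of p38, differed in which arrays were high. Gadd45a, a p53 target (probe at chr6:66985376-66985435, mm9), read 1.96, 2.55, 2.44 and 2.48 against 3.11, 2.84, 2.50 and 2.66. The 2 highest arrays were knockout 1 and 2, and knockout 3 fell below wild-type 2. The difference was 0.42 (SE 0.17, limma adjusted p = 0.340). It was larger, 0.62, without knockout 3 and 4. Gadd45b, induced by TGF-beta and NF-kB, stood at 2.59, 2.68, 2.22 and 2.48 against 2.52, 2.95, 3.14 and 3.10. Knockout 3 and 4 were the 2 highest arrays and knockout 2 also lay above the wild-type arrays. The difference was 0.43 (SE 0.16, limma adjusted p = 0.292), and 0.24 without knockout 3 and 4. Gadd45g had a difference of -0.12 (SE 0.13), with knockout 3 and 4 the lowest arrays.

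Among the other regulators of transcription, knockout 3 and 4 were the 2 highest arrays for Nfkbiz, Ier5 and Ier2, while knockout 1 was the highest for Csrnp1 and Myc. Nfkbiz, a nuclear IkB protein that opens secondary NF-kB targets, read -1.65, -1.55, -1.42 and -1.60 in wild-type and -1.50, -1.99, -0.07 and -0.44 in knockout arrays. Knockout 2 was the lowest of all arrays, and the difference of 0.56 (SE 0.38, limma adjusted p = 0.545) became -0.19 without knockout 3 and 4. Ier5, a regulator tied to the heat shock factor, differed by 0.38 (SE 0.25), with knockout 3 and 4 at -0.34 and -0.65 above a wild-type range of -1.47 to -1.25.

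Csrnp1, a nuclear protein first found as induced by axin, stood at 2.86, 2.87, 2.83 and 2.96 against 3.41, 2.89, 3.29 and 3.18. Knockout 1 was the highest array, knockout 3 and 4 followed, and knockout 2 lay in the wild-type range, with a difference of 0.31 (SE 0.11, limma adjusted p = 0.286). Myc, a driver of growth and ribosome synthesis, differed by 0.23 (SE 0.11, limma adjusted p = 0.404), with an unadjusted p of 0.0655 from limma. Its 4 knockout arrays lay between 2.71 and 2.89, with knockout 1, 3 and 4 above the wild-type maximum of 2.79. Ier2 read 0.49 and 0.32 in knockout 3 and 4 against a wild-type maximum of 0.23, and its difference of 0.16 (SE 0.11) was 0.013 without them. The differences were close to or below their SE for the antiproliferative cofactors Btg2 and Btg1, at 0.23 (SE 0.22) and -0.03 (SE 0.12).

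The CCN proteins, secreted matrix-associated ligands of integrins and textbook targets of YAP and SRF, went separate ways. Cyr61, now named Ccn1 (probe at chr3:145310187-145310246, mm9), stood at -0.66, -0.31, 0.05 and -0.16 in wild-type and -0.43, -0.13, 1.94 and 1.50 in knockout arrays. Knockout 1 and 2 lay inside the wild-type range and knockout 3 and 4 at 4.62 and 3.41 times the wild-type mean, with a difference of 0.99 (SE 0.51, limma adjusted p = 0.438) that was -0.0083 without them. Ctgf, now Ccn2, had a difference of -0.07 (SE 0.20), and its highest array was knockout 2, at 3.53.

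**Figure D4:**
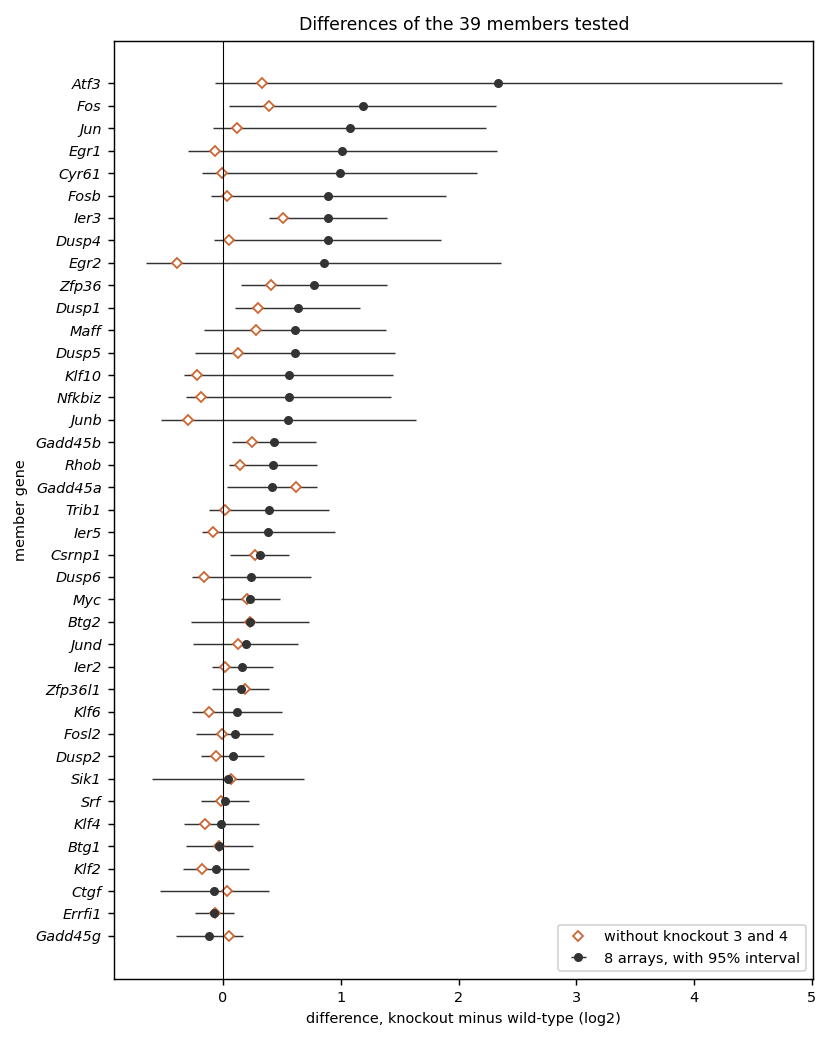
Filled points give the knockout minus wild-type difference of each of the 39 members on the log2 scale over 8 arrays, with its 95% interval from limma, and open diamonds the difference without knockout 3 and 4. The filled points run from -0.12 for Gadd45g to 2.34 for Atf3, and most diamonds of the upper rows lie close to 0.

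For 6 members (Btg1, Fosl2, Ier5, Rhob, Srf and Trib1) more than 1 probe was kept, and the probes of a gene did not differ in sign. The other Ier5 probe gave 0.24 (SE 0.18), the other Rhob probe 0.30 (SE 0.29), and the other Trib1 probes 0.36 (SE 0.25) and 1.80 (SE 0.90). The probe with 1.80 was dim, well above background on 4 arrays. Wild-type 1, wild-type 2 and knockout 1 read -6.53, -7.21 and -5.54 on it. These lay below their lowest measurable levels of -5.46, -5.16 and -5.38, so the size of that difference is not reliable. The other Btg1 probe gave -0.16 (SE 0.21) and the other Fosl2 probe 0.05 (SE 0.37).

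The upstream pathway and neighbouring gene lists put the members beside the signals known to induce them. No gene of the 14 lists passed in limma's test. The MAP kinase cascade (35 genes tested) had a median difference of 0.04. At an unadjusted limma p under 0.05, 2 of its genes were higher and 0 lower, against 6.84% and 6.48% of all genes. The growth factor ligands and receptors (28 tested) had a median of -0.07, with 2 higher and 5 lower. Fgf1, a fibroblast growth factor, came closest to passing, with a difference of -0.52 (SE 0.09, limma adjusted p = 0.078). The CREB list (17 tested), the SRF cofactor and cytoskeletal list (19 tested) and the YAP and TAZ list (21 tested) had medians of -0.06, -0.05 and 0.01. The other Kruppel-like factors (13 tested) stood at a median of 0.02, and their median in knockout 3 was 0.02 above the wild-type mean.

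Lists of other fast-induced genes resembled the members in which arrays were high. The inflammatory cytokines and chemokines (13 tested) had a median difference of 0.86 and of -0.01 without knockout 3 and 4. Their median lay 1.79 above the wild-type mean in knockout 3 and 1.54 in knockout 4, and the same median was 0.11 in knockout 1 and -0.39 in knockout 2. In 11 of the 13, knockout 3 and 4 were the 2 highest arrays. Ccl3, a chemokine of activated myeloid cells, differed by 1.12 (SE 0.50, limma adjusted p = 0.384), while Ccl5 was lower, by -0.67 (SE 0.14, limma adjusted p = 0.117). The heat shock genes (13 tested) had a median difference of 0.30, with knockout 3 and 4 the 2 highest arrays in 11, and its gene of smallest p was Hspa5, the chaperone BiP, with 0.40 (SE 0.12, limma adjusted p = 0.231). Hspb1, a small chaperone, differed by 1.33 (SE 0.61, limma adjusted p = 0.393).

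The NF-kB inhibitors and subunits (15 tested) had knockout 3 and 4 the 2 highest in 9, with a median difference of 0.15. Bcl3, an atypical IkB protein, had the smallest p, with 0.63 (SE 0.36, limma adjusted p = 0.478). Tnfaip3, the A20 feedback inhibitor, differed by 1.12 (SE 0.71, limma adjusted p = 0.512). The hypoxia list (22 tested) had a median difference of 0.28 and kept 0.17 without knockout 3 and 4. At an unadjusted limma p under 0.05, 8 of its genes were higher and 1, Ddit4, lower, against 6.84% and 6.48% of all genes. Ddit4 differed by -0.42 (SE 0.13, limma adjusted p = 0.230). Pdk1, an inhibitory kinase of pyruvate dehydrogenase, had the smallest p, with 0.31 (SE 0.07, limma adjusted p = 0.146) and 0.29 without knockout 3 and 4. Slc2a1, the glucose transporter GLUT1, differed by 0.71 (SE 0.18, limma adjusted p = 0.171) over 8 arrays and by 0.75 without knockout 3 and 4. The AP-1 and Maf partners (17 tested), the NR4A receptors and other induced regulators (35 tested), the other feedback inhibitors of MAP kinases (17 tested) and the p53 targets (15 tested) had medians of 0.15, 0.10, 0.11 and 0.10. Knockout 3 and 4 were the 2 highest arrays in 8, 14, 6 and 3 of their genes, against 10.4% of all genes. In knockout 3 the medians of these lists lay 0.28, 0.24, 0.23 and 0.02 above the wild-type mean.

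**Figure D5:**
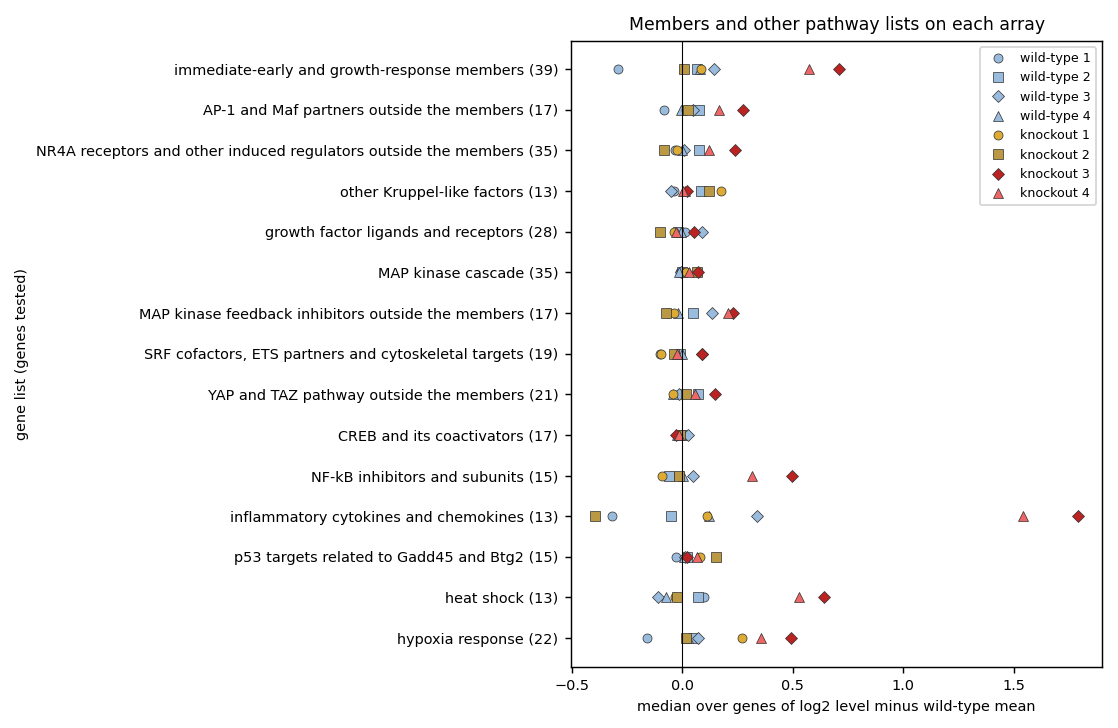
Each row is a gene list, with the number tested in brackets, and each symbol the median over its genes of the log2 level minus the wild-type mean in 1 array. Knockout 3 and 4 lie to the right for the members, the inflammatory cytokines, the heat shock genes and the NF-kB list. They are also the 2 rightmost for the hypoxia, AP-1 partner, NR4A and feedback inhibitor lists. For the MAP kinase cascade, CREB and Kruppel-like lists they lie close to the other arrays.

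Macrophage, neutrophil and endothelial marker sums of knockout 3 and 4 lay within the range of the other arrays. Of the macrophage list (11 of 11 genes tested), the neutrophil list (12 of 12) and the endothelial list (12 of 12), 0 genes had knockout 3 and 4 as the 2 highest arrays. The summed macrophage signal was 232 to 306 in wild-type and 233 to 269 in knockout arrays, the neutrophil sum 1253 to 1559 and 1424 to 1484, and the endothelial sum 69.5 to 97.3 and 67.1 to 76.0. Wild-type 1 gave the highest macrophage and endothelial sums and the lowest neutrophil and hepatocyte sums. The stellate and fibroblast sum (12 of 12) did not overlap between groups, at 166 to 187 in wild-type and 125 to 152 in knockout arrays. It was lowest in knockout 3 and 4, at 125 and 129, against 135 and 152 in knockout 1 and 2. Of its genes 8 were lower at an unadjusted limma p under 0.05, against 6.48% of all genes, and 0 passed. The lymphocyte list (11 of 12 tested) had a median difference of -0.21, and its B cell marker Ms4a1 was lower in knockout arrays, by -0.88 (SE 0.11, limma adjusted p = 0.028). The lymphocyte sum was 35.3 to 46.1 in wild-type and 36.0 to 41.0 in knockout arrays, with 36.0 and 37.4 in knockout 3 and 4. The erythroid list (11 of 12 tested) had a median difference of 0.30, and of 0.33 without knockout 3 and 4, with a sum of 1470 to 2178 in wild-type arrays, lowest in wild-type 1, and 1941 to 2079 in knockout arrays. In 3 of its genes knockout 3 and 4 were the 2 highest arrays. Pancreas markers (7 of 14 tested) summed to 52.6 in wild-type 3 and 26.4 in wild-type 4, against 3.51 to 4.56 in the other 6 arrays. The part of stellate cells, of lymphocytes, of red cell precursors, of pancreas tissue and of sex in the member levels was not tested. In the fits with Xist or Ddx3y as a covariate, 0 members passed. Xist was well above background only in knockout 1, 2 and 4, so the fit with Xist cannot separate sex from genotype.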

How the data were processed

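The authors deposited the scanner output of 8 single-colour Agilent arrays, which holds each spot's intensity on a linear scale, and the submitters' processing notes name Agilent Feature Extraction 10.10. They also deposited a value table in log2 units. The notes name limma, but how the table was normalized is not given in the sources used here. It was used as an alternative only. Its column medians were 8.84 to 8.86, its genes were not centred, and single-colour values carry no direction. Probe coordinates are on mm9 per the file headers, and promoter sequences are RefSeq's on GRCm38.p6.

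Control and outlier-flagged spots were left out, spots of 1 probe were averaged, and 87 probes with no unflagged spot on some array were dropped. Processed signals were scaled to each array's 75th percentile over non-control spots and taken to log2. Probes well above background on at least 4 arrays were kept, with 1 probe per gene by highest mean. Of 55681 probes, 27235 were named by accession and 565 by synonym, against the RefSeq table of GRCm38.p6. Groups were compared with limma 3.58.1 in R 4.3.3 (lmFit and eBayes, all 8 arrays, no covariate, two-sided, Benjamini-Hochberg, threshold 0.05), and the fitting code was tested on simulated data.

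Every member was named. Levels per array were given for members with an unadjusted p under 0.05 or a difference of at least 0.5, and other lists were represented by some of their 3 genes of smallest p. The members and lists were chosen with earlier results of these data known, so counts over them are descriptions, read against the share of all genes. Alternatives were other scaling, background correction, filter, probe rule and variance model, sex-linked covariates, the replicate number as a block, and leaving out arrays. P-values treat all 8 arrays as separate animals.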

Additional observations from a re-analysis of the deposited data

Results flagged for a closer look

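In 3 of 78 groups of 4 arrays (39 members in each genotype), a single array lay far from the other 3 of its group. Fosl2 in wild-type 1 read 1.19, below 1.58 to 1.64 in the other wild-type arrays. Junb in wild-type 1 read -2.97, below -2.19 to -2.07. Egr2 in wild-type 3 read -3.71, above -4.85 to -4.68. The marks for Fosl2 and Junb fall on the same array. A group with knockout 3 and 4 both high can escape a rule that looks for a single array. The 78 groups come from the same arrays and are not independent, so 3 of 78 cannot be set against a chance rate.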

How the results depend on the processing

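No member passed at an adjusted p under 0.05 under any of the 24 alternatives. The fit with the added scaling (75th percentile over probes in place of spots), chosen after seeing the data, gave a median member difference of 0.38. The median was 0.37 with quantile normalization, 0.30 with normexp background correction, 0.31 with both and 0.29 with the deposited value table (32 members). It moved by more than the spread between knockout arrays with Xist as a covariate, to 0.85, and without knockout replicates 3 and 4, to 0.035. With Xist the difference rests mainly on knockout 3, the only knockout array in which Xist was not well above background. Single arrays left out gave a median of 0.23 to 0.47. The labels do not say that the replicate numbers of the 2 groups pair the samples. Same-numbered deviations had correlations from -0.11 to 0.07, which with 4 arrays per group cannot decide it. A fit with the replicate block gave a median of 0.39 and 0 members passing. At an unadjusted limma p under 0.05, 14 members were higher in that fit, against 8 without the block, and the share of all genes with the block was not counted.

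Of 927 member values over the alternatives, 9 changed sign where the difference over 8 arrays had exceeded its SE. Without knockout replicates 3 and 4 these were Egr2 (-0.39), Junb (-0.30), Klf10 (-0.22), Nfkbiz (-0.19), Dusp6 (-0.16), Ier5 (-0.087), Egr1 (-0.071) and Cyr61 (-0.0083). With signals summed on the linear scale, also added after seeing the data, the members' median miss in knockout 4 was 0.055 in place of 0.073. Btg2 ran from -0.016 to 0.35 when 1 array was left out, the lowest without wild-type 1. The causes were not tested. Over all genes, 0 to 30 were higher and 6 to 127 lower across alternatives, against 9 and 42. The most came from robust variance (30 higher, 119 lower) and normexp with quantile scaling (24 and 127), and the fewest from leaving out replicate 4 of both groups (0 and 6). Members at an unadjusted p under 0.05 numbered 20 with Xist and 14 with Ddx3y as a covariate. With 4 arrays per group, the 95% interval of a member's difference reached a median of 0.50 to either side, and Dusp5 and Egr2 lay near background.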
